A study of Drosophila melanogaster with 20 samples.

Results

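The genes described here encode small secreted proteins that carry odorants, pheromones and other hydrophobic molecules in insects. They are the 32 of 9831 genes in the deposited table whose symbol was Obp followed by a digit, began with CheA or CheB, or was lush, a10, PebIII or Phk-3. Of these, 26 are odorant-binding protein (OBP) genes, counting lush, 3 belong to the chemosensory protein (CSP) family and 3 to the CheA and CheB families. The reference annotation gives 75 genes such symbols, and those without a row in the table were not analysed here. Expression had been measured by sequencing polyadenylated RNA from heads of adult male Drosophila melanogaster, with 25 to 30 heads per sample and the males drawn from populations of both sexes. The groups were midlife wild type (22 to 23 days old, n = 4), young wild type (7 days, n = 5), midlife chm/+ (22 to 23 days, n = 5) and young chm/+ (7 days, n = 6). The chm/+ flies carry 1 mutant copy of chameau (chm), a histone acetyltransferase gene of the MYST family, and the labels do not name the allele or the wild-type strain. The study asked how heads change from youth to midlife in each genotype.

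OBPs fill the fluid around the dendrites of sensory neurons inside the hair-like sensilla of the antenna and the mouthparts, where support cells secrete them and where they bind, carry or buffer hydrophobic ligands. Many OBP genes lie in tandem clusters, and several are transcribed outside sense organs, in fat body, glia or reproductive glands. CSPs are a separate family of small soluble binding proteins, and CheA and CheB proteins are related to a mammalian lipid-binding cofactor and were first found in taste hairs of male forelegs. Fewer cells of a type and less RNA per cell cannot be told apart in whole heads.

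Values are the authors' normalized counts, adjusted to a common library size, with totals of 27572012 to 30470376 per library. They take no account of transcript length, so levels are compared between groups and not between genes. Read depth is unknown. Column names give the group of each library but not which listed sample it is, so libraries are called by column name: 2uo for midlife wild type, 2uy for young wild type, CHMo for midlife chm/+ and CHMy for young chm/+. chm stood at 283 to 364 in the 11 chm/+ libraries and at 571 to 678 in the 9 wild-type libraries. The first 10 and the last 10 columns of the table each hold all 4 groups, and 48.3% of all genes differed between these column sets, with 12 of the 32 carrier genes among them. No batch is labelled. On the main axis of variation within groups, which held 47% of that variation, the first 10 columns stood at -27.5 to -4.66. Of the last 10 columns, 2uo2 stood at -11.9 and the others at 0.963 to 23.6. Midlife wild type in the second column set is only 2uo1 (23.6) and 2uo2, so wild-type changes there rest on unlike libraries. Of 15 symbols of accessory gland, ejaculatory bulb and testis genes sought, 0 were in the table, against 8 of 8 photoreceptor, 7 of 7 glial, 9 of 11 neuronal and 5 of 10 antennal symbols. The yolk protein gene Yp1 was at 2716 in library CHMy2 and at 90.8 to 945 in the other 19.

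In wild type, more carrier genes were called higher than lower at midlife. Of the 32, 10 rose (Obp56a, a10, Obp28a, Obp99d, Obp56b, Obp83ef, Obp56e, Obp56d, Obp18a and lush), 1 fell (Obp44a) and 21 were not called by limma at an adjusted p under 0.05 over all genes. Among all 9831 genes 23.7% were called, 12.4% higher and 11.3% lower. Median log2 change was 0.21 over the 32 genes and -0.02 over all genes. In chm/+, 4 rose (Obp56a, a10, Obp73a and Obp83ef), 5 fell (Obp44a, Obp19b, Obp56g, Obp99b and Obp83g) and 23 were not called, where 16.0% of all genes were called, 8.63% higher and 7.36% lower, and the median was 0.12 over the 32 genes and -0.01 over all genes. The group means of these comparisons share no library, but the spread used for both was estimated from all libraries, so the calls are not independent. Called in both were 4 genes, which is 36.4% of the wild-type list and 44.4% of the chm/+ list (49.1% and 72.8% over all genes). Those 4 were Obp56a, a10 and Obp83ef, higher at midlife, and Obp44a, lower. All 11 wild-type and all 9 chm/+ calls had the same sign in both column sets when each set was fitted alone. Both sets were part of the fit that gave the calls, so the shared sign is no independent check. Midlife and young libraries did not overlap for 8 genes with midlife higher and 1 with midlife lower in wild type (10.9% and 9.30% of all genes), and for 3 and 2 in chm/+ (4.59% and 4.40%). Without CHMo11 the chm/+ count was 6, and without 2uy3, CHMy2 and CHMo12 together it was also 6, with Obp19b, Obp83g and Obp99b no longer called.

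**Figure D1:**
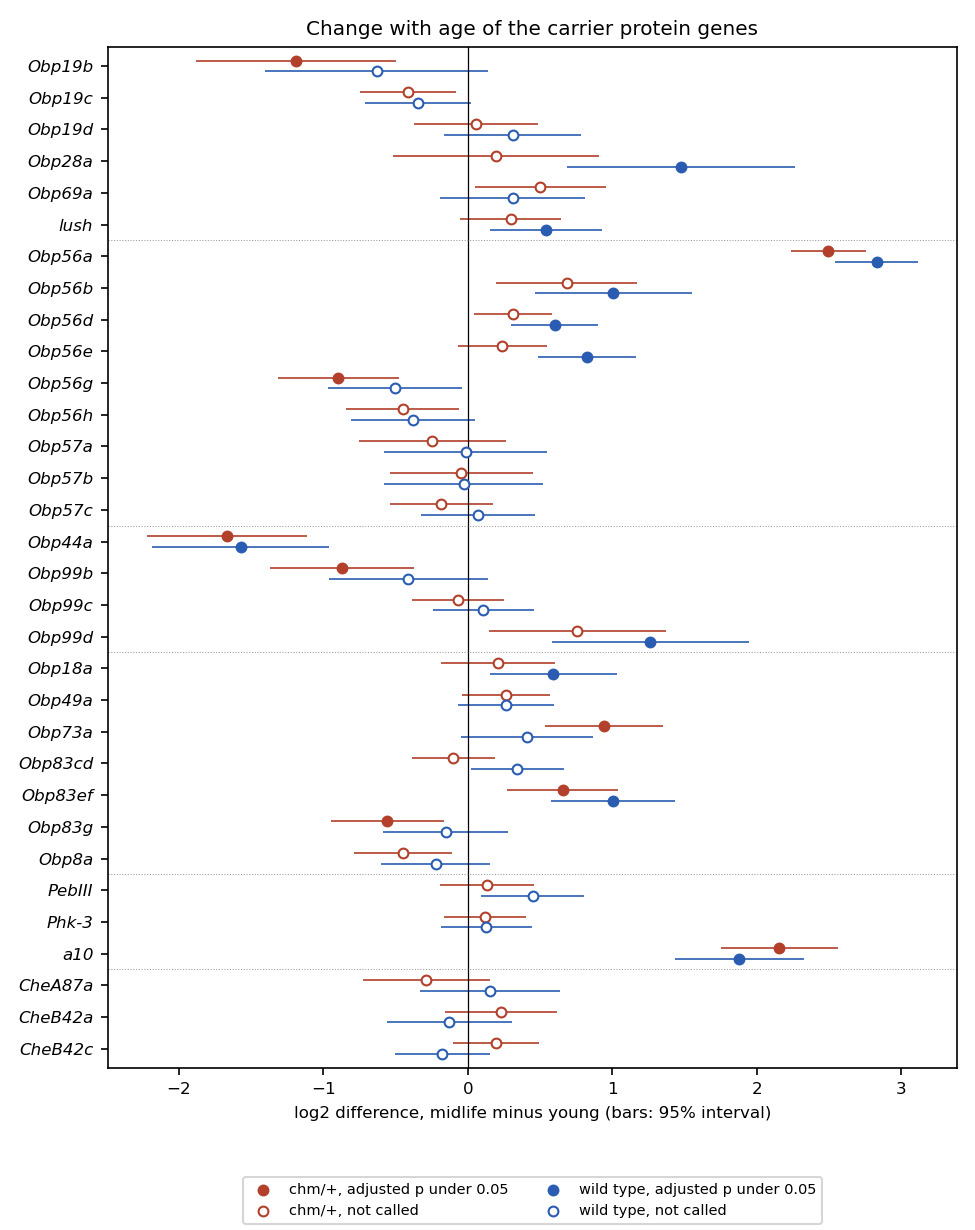
Log2 difference between midlife and young heads (x axis, with 95% interval from limma) for the 32 carrier genes (y axis, in blocks of antennal carriers, the 56 and 57 clusters, the 99 cluster with Obp44a, other OBP genes, the CSP family and CheA and CheB), in chm/+ (red, above) and wild type (blue, below), with filled points at an adjusted p under 0.05. Obp56a and a10 lie farthest right and Obp44a farthest left in both genotypes.

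Obp56a, a gene of the OBP cluster on arm 2R, had the steepest change. It stood at 897, 1227, 811 and 868 normalized counts in midlife wild type, against 96.5, 117, 165, 126 and 104 in young wild type. In chm/+ it stood at 1274, 1109, 1218, 1216 and 1232 at midlife, against 153 to 236 in young heads (median 209). Every midlife library of either genotype lay above every young library. The log2 change was 2.83 in wild type (SE 0.14, adjusted p = 1.23e-10) and 2.49 in chm/+ (SE 0.12, adjusted p = 1.93e-10). It was 2.95 and 2.73 in the first and second column sets for wild type, and 2.41 and 2.56 for chm/+.

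a10, a CSP family gene first found in the antenna, rose in both genotypes. It stood at 329.5, 181, 192 and 279 normalized counts in midlife wild type, against 51.4, 85.4, 40.1, 45.9 and 56.2 in young wild type. Midlife chm/+ libraries stood at 140.3, 148, 258, 286 and 203, against 25.1 to 44.3 in young chm/+ (median 34.4). Midlife and young libraries did not overlap in either genotype. The log2 change was 1.88 in wild type (SE 0.21, adjusted p = 3.55e-06) and 2.16 in chm/+ (SE 0.19, adjusted p = 2.85e-07). The other CSP genes were not called with age. PebIII, known from the ejaculatory bulb and as a gene induced by viral infection, averaged 72782 ± 16076 in midlife wild type and 52757 ± 8034 in young wild type (SD, n = 4 and n = 5). Its change of 0.45 was not called (SE 0.17, adjusted p = 0.0652). It was called with a term for the column set in the model (0.49, adjusted p = 0.00300). Phk-3, a relative of PebIII that is also induced by infection, had a log2 change of 0.13 in wild type (adjusted p = 0.602) and 0.12 in chm/+ (adjusted p = 0.651). Of 30 immune-induced genes, 22 rose in wild type and 26 in chm/+, and the part of infection or immune activity in the values of PebIII and Phk-3 was not tested.

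Obp44a, an OBP gene also transcribed in glia of the nervous system, fell in both genotypes. It stood at 3365, 4539, 3817 and 6780 normalized counts in midlife wild type, against 17217, 17343, 15723, 10106 and 8734 in young wild type. In chm/+ it stood at 4697, 3506, 3657, 9801 and 5761 at midlife, against 12144 to 22083 in young heads (median 16171). No midlife library reached the lowest young library of its genotype, and 2uo2 and CHMo12 were the highest midlife libraries. The log2 change was -1.57 in wild type (SE 0.29, adjusted p = 0.000634) and -1.67 in chm/+ (SE 0.27, adjusted p = 0.000212). The changes were -2.09 and -2.32 in the first column set and -0.88 and -1.12 in the second, where neither was called. Exons of Obp44a and Pabp2 overlap by 205 bases on opposite strands in the reference annotation, and the sources do not state whether reads were counted by strand. Pabp2 stood at 1167 ± 195 in midlife and 985 ± 281 in young wild type (SD, n = 4 and n = 5), and its change of 0.27 was not called (adjusted p = 0.322). Of 7 glial markers, 1 was called higher and 2 lower in wild type and 0 either way in chm/+, and their summed level was 50369 to 54783 in midlife wild type against 51823 to 63630 in young wild type, and 47950 to 66668 in midlife chm/+ against 55441 to 67310 in young chm/+. Of 9 neuronal markers, 5 fell in wild type and 2 in chm/+, with a summed level of 68847 to 102636 in midlife wild type against 110902 to 132847 in young wild type. In chm/+ the neuronal sums overlapped, at 86711 to 135298 at midlife against 99301 to 142575 in young heads. The part of glial or neuronal RNA in the change of Obp44a was not tested.

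**Figure D2:**
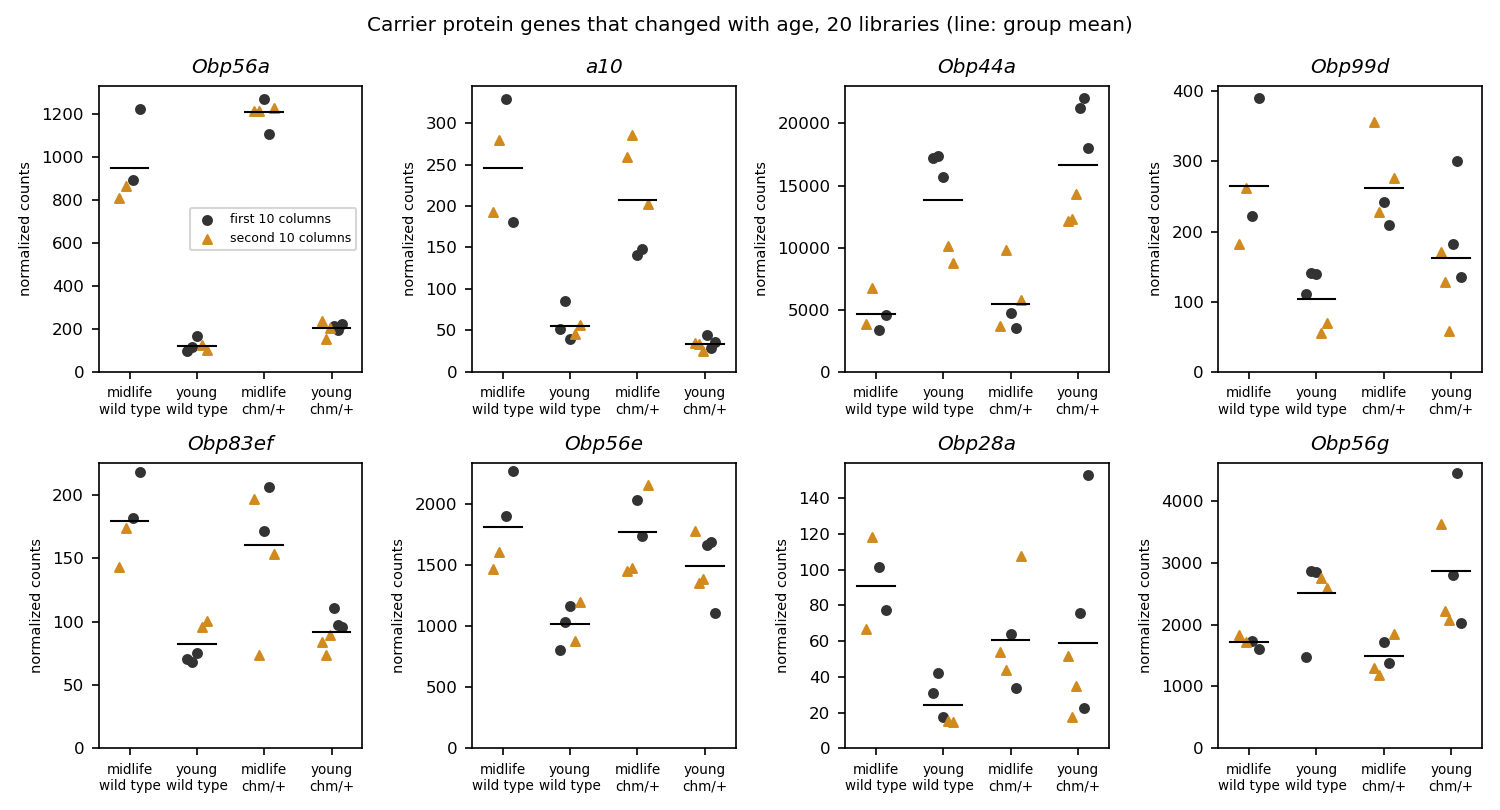
Normalized counts (y axis, linear from 0) of 8 carrier genes in each of the 20 libraries, by group (x axis), with circles for the first 10 and triangles for the last 10 table columns and a line at each group mean. For Obp56a and a10 all midlife libraries lie above all young ones, and for Obp44a below them, within each genotype. Obp28a separates the ages in wild type, while the chm/+ groups overlap.

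The block listed here as antennal carriers was set by hand, and its genes with a row in the table were Obp19b, Obp19c, Obp19d, Obp28a, Obp69a and lush. Whole heads do not show in which sense organ these genes are expressed. lush, whose protein binds the male pheromone cis-vaccenyl acetate in trichoid sensilla, rose in wild type. It stood at 96.2, 66.9, 68.7 and 58.5 normalized counts at midlife, against 31.2, 50.8, 36.4, 55.2 and 53.8 in young wild type. The groups did not overlap (log2 change 0.54, SE 0.18, adjusted p = 0.0394). The call was lost without 2uo4, 2uo5, 2uy1, 2uy3 or 2uo1, with an adjusted p up to 0.140. It was also lost under quantile normalization, with the column number as a block, and without 2uy3, CHMy2 and CHMo12 together. In the second column set it was lost too, where the change was 0.18 (adjusted p = 0.650) against 0.83 in the first. In chm/+ lush averaged 75.9 ± 19.4 at midlife and 59.0 ± 14.3 in young heads (SD, n = 5 and n = 6), with a log2 change of 0.30 (adjusted p = 0.271).

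Obp28a, an abundant OBP of the antenna in other work, rose in wild type. It stood at 102, 77.2, 66.7 and 118 normalized counts at midlife, against 30.9, 42.4, 17.7, 15.1 and 14.9 in young wild type (log2 change 1.47, SE 0.38, adjusted p = 0.00768). The lowest midlife library was above the highest young one. The change was 1.24 in the first column set, where it was not called (adjusted p = 0.0875), and 1.82 in the second. In chm/+ the midlife libraries stood at 63.9, 34.0, 54.0, 43.6 and 108, against 17.8 to 153 in young heads (median 43.1), and the change was not called (0.20, SE 0.34, adjusted p = 0.792). The difference between these changes was -1.28 (95% interval -2.34 to -0.21, adjusted p = 0.635) and was not called.

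Of the X-linked cluster of Obp19b, Obp19c and Obp19d, Obp19b was called with age, in chm/+ alone among the genotypes, and differences between the 3 genes were not tested. It stood at 273, 173, 143, 119 and 276 normalized counts in midlife chm/+, against 217 to 979 in young chm/+ (median 421). The groups overlapped through CHMy11 and CHMy12, and Obp19b was called lower (log2 change -1.19, SE 0.33, adjusted p = 0.0180), a call lost without CHMo11 (adjusted p = 0.0517). In wild type its change was -0.63 (adjusted p = 0.246). Obp19c had changes of -0.35 in wild type and -0.42 in chm/+ (adjusted p = 0.176 and 0.0868). Obp19d, an OBP gene of antennal and taste sensilla, ranged from 22427 to 51117 over all libraries and had changes of 0.31 and 0.06 (adjusted p = 0.376 and 0.909). Obp69a, linked in other work to how flies respond to pheromone, ranged from 58.3 to 192 and had changes of 0.31 and 0.50 (adjusted p = 0.407 and 0.135).

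Of the 5 antennal markers in the table, Snmp1 and antdh rose in wild type, and Orco, Ir25a and Ir76b did not pass the test (adjusted p = 0.377, 0.963 and 0.385). antdh rose by 0.58 (adjusted p = 0.0224), a call lost without 2uo4, 2uo5, 2uo2, 2uy4 or 2uy5. The summed level of the 5 was 1461 to 1622 normalized counts in midlife wild type against 915 to 1194 in young wild type. It was 1374 to 1846 in midlife chm/+ against 1264 to 1626 in young chm/+. The sum is mostly antdh and Snmp1, with means of 844 and 478 in midlife wild type against 570 and 300 in young wild type. Orco, Ir25a and Ir76b averaged 44.2, 100 and 82.3 in midlife wild type against 34.5, 101 and 65.1 in young wild type. In chm/+ 0 of the 5 were called. The part of antennal RNA in the rises of lush and Obp28a was not tested. Of 46 symbols sought for a wider list of sense-organ genes, 24 were in the table. They are receptors, co-receptors, degrading enzymes and other carriers, with Arr1, Arr2 and rdgB, known from phototransduction, and the transcription factor gene lz. Of the 24, 8 rose and 2 fell in wild type and 4 rose and 0 fell in chm/+, with medians of 0.09 and 0.09. The 2 that fell were ppk29, an ion channel subunit gene, and rdgB (-0.62 and -0.34, adjusted p = 0.0331 and 0.0438), calls lost without any of 4 and of 12 single libraries. Jhedup, an esterase that degrades odorant esters, rose by 2.21 in wild type (SE 0.35, adjusted p = 0.000118) and by 1.25 in chm/+ (SE 0.31, adjusted p = 0.00879). Snmp1, a membrane protein needed for the response to cis-vaccenyl acetate, rose by 0.63 in wild type (adjusted p = 0.0142), a call lost without 2uo1 (adjusted p = 0.0582). Its relative Snmp2 rose by 0.60 in wild type (adjusted p = 0.0141) and by 0.55 in chm/+ (adjusted p = 0.0186), the chm/+ call being lost without CHMo5 (adjusted p = 0.0620). Npc2b, of another family of secreted lipid-binding proteins, rose by 0.37 in wild type (adjusted p = 0.0136), a call lost without 2uo5 (adjusted p = 0.0627). Ir75a, an ionotropic receptor of acids, and Cyp6w1, a cytochrome P450, rose in chm/+ by 0.75 and 0.74 (adjusted p = 0.00107 and 0.00150). In wild type they rose by 0.44 and 0.47 (adjusted p = 0.0493 and 0.0406), calls lost without any of 13 and of 5 single libraries.

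Genes of the 56 cluster lie side by side on arm 2R with 0 other genes of the table between them, and they moved in both directions. Obp56b stood at 37.7, 32.9, 50.5 and 33.6 normalized counts in midlife wild type, against 12.8, 13.4, 17.0, 6.51 and 10.2 in young wild type, without overlap (log2 change 1.01, SE 0.26, adjusted p = 0.00771). Its change in chm/+ was 0.69 and lay just outside the threshold (adjusted p = 0.0518). With the column number as a block it was called (0.98, adjusted p = 0.00893), and without CHMo12, its highest library, it was 0.43 (adjusted p = 0.139). Obp56d averaged 18287 ± 3103 in midlife wild type and 12058 ± 2129 in young wild type (SD, n = 4 and n = 5), and rose by 0.60 (SE 0.14, adjusted p = 0.00445). In chm/+ it averaged 17190 ± 1209 at midlife and 13937 ± 2224 in young heads (SD, n = 5 and n = 6), a change of 0.31 (adjusted p = 0.113).

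Obp56e stood at 1900, 2264, 1466 and 1609 normalized counts in midlife wild type, against 806, 1032, 1167, 875 and 1195 in young wild type. It rose by 0.82 in wild type (SE 0.16, adjusted p = 0.00104), without overlap of the groups. Midlife chm/+ libraries stood at 2030, 1733, 1447, 1472 and 2151, against 1105 to 1780 in young chm/+ (median 1523), and the change was 0.24 (adjusted p = 0.323). In the reference annotation 449 bases of its exons lie opposite an antisense RNA gene, asRNA:CR44509.

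Obp56g and Obp56h, at the other end of the cluster, had negative changes in both genotypes. Obp56g, which encodes a seminal fluid protein made in the ejaculatory bulb, stood at 1721, 1374, 1295, 1192 and 1857 normalized counts in midlife chm/+, against 2032 to 4460 in young chm/+ (median 2512). The groups did not overlap, and Obp56g fell by 0.90 on the log2 scale in chm/+ (SE 0.20, adjusted p = 0.00382). The change was -0.93 and -0.85 in the first and second column sets alone, where neither was called (adjusted p up to 0.0746). In wild type it stood at 1739, 1600, 1836 and 1723 at midlife, against 1483, 2872, 2850, 2762 and 2600 in young heads. Library 2uy1 was below all midlife wild-type libraries and the other 4 were above them (log2 change -0.50, adjusted p = 0.113). Obp56h, an OBP gene linked in other work to male mating and cuticular hydrocarbons, had changes of -0.38 in wild type and -0.45 in chm/+ (adjusted p = 0.207 and 0.114). In the second column set alone it was called lower in both genotypes (-0.90 and -0.75, adjusted p = 0.0271 and 0.0266), while the first set gave 0.00 and -0.07.

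**Figure D3:**
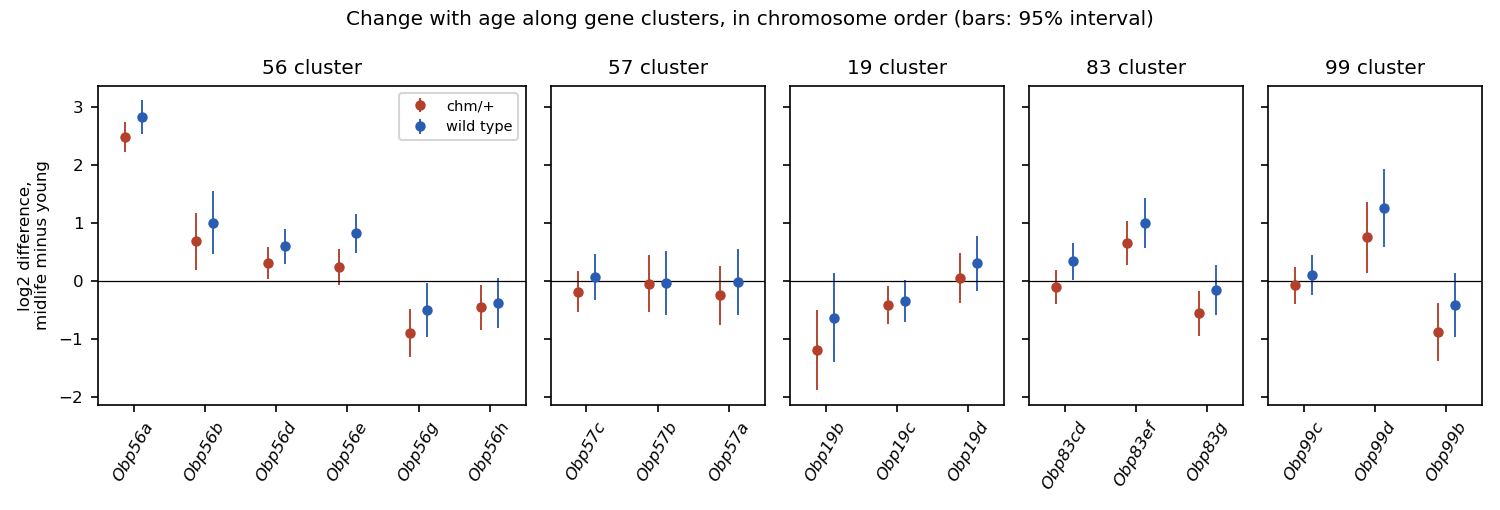
Log2 difference between midlife and young heads (y axis, with 95% interval) for genes of 5 OBP clusters, placed left to right in chromosome order within each cluster, in chm/+ (red) and wild type (blue). The 56 cluster runs from 2.83 for Obp56a to -0.50 for Obp56g in wild type, and the 57 cluster from -0.03 to 0.07.

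The 57 cluster of Obp57c, Obp57b and Obp57a, neighbours on the same arm, was not called with age. Its genes belong to a family known from taste hairs. The lowest and highest log2 changes of the 3 genes were -0.03 and 0.07 in wild type, and -0.25 and -0.04 in chm/+. Levels differed between column sets: second minus first was 0.60 for Obp57a, 0.52 for Obp57b and 0.40 for Obp57c, all 3 called (adjusted p = 0.000608, 0.00442 and 0.00129).

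In the 99 cluster on arm 3R, Obp99d was called in wild type and Obp99b in chm/+, and the difference between these genes was not tested. Obp99d stood at 222, 391, 182 and 262 normalized counts in midlife wild type, against 111, 141, 140, 55.7 and 69.1 in young wild type. It rose by 1.26 (SE 0.33, adjusted p = 0.00791), without overlap of the groups. In chm/+ it averaged 262 ± 57.9 at midlife and 162 ± 80.5 in young heads (SD, n = 5 and n = 6), a change of 0.76 that was not called (SE 0.29, adjusted p = 0.0914) and was 0.19 in the first column set and 1.26 in the second.

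Obp99b, the next gene, which is transcribed in the fat body of the head, stood at 12047, 18925, 15993, 9761 and 24643 normalized counts in midlife chm/+, against 22263 to 35650 in young chm/+ (median 28154). Only CHMo5 reached into the young range, and Obp99b fell by 0.87 on the log2 scale (SE 0.24, adjusted p = 0.0158). With CHMo12, CHMy2 and 2uy3 left out together it was not called (-0.64, adjusted p = 0.0873). Nor was it called in the first or second column set alone (-0.84 and -0.91, adjusted p up to 0.135). In wild type it averaged 26480 ± 10972 at midlife and 33693 ± 7328 in young heads (SD, n = 4 and n = 5), a change of -0.41 (adjusted p = 0.298). Of 9 fat body markers, 1 rose and 1 fell in chm/+, with a summed level of 453957 to 725094 at midlife against 514461 to 949495 in young heads. The part of fat body RNA in the fall of Obp99b was not tested. Obp99c ranged from 18632 to 37398 and had changes of 0.11 in wild type and -0.07 in chm/+ (adjusted p = 0.712 and 0.837).

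Among the other OBP genes, Obp83ef stood at 182, 218, 143 and 174 normalized counts in midlife wild type, against 70.7, 67.9, 74.9, 95.7 and 101 in young wild type. The groups did not overlap, and it rose by 1.00 (SE 0.20, adjusted p = 0.00128). In chm/+ it stood at 171, 206, 197, 73.5 and 153 at midlife, against 73.7 to 111 in young heads (median 92.4). The 4 other midlife libraries lay above all young ones, and CHMo12 below them. The rise of 0.66 in chm/+ (SE 0.18, adjusted p = 0.0185) was lost without CHMo3 or CHMo11 (adjusted p up to 0.0643) and with the column number as a block (0.64, adjusted p = 0.104), while without CHMo12 it was 0.89.

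Obp83ef and Obp83cd, both of which code for a protein with a pair of OBP domains, overlap by 92 bases on opposite strands in the reference annotation, so reads from that stretch may be shared. Obp83cd had changes of 0.34 in wild type and -0.10 in chm/+ (adjusted p = 0.120 and 0.726). Obp83g, their neighbour, averaged 37.4 ± 11.3 in midlife chm/+ and 63.1 ± 22.6 in young chm/+ (SD, n = 5 and n = 6), and the log2 change was -0.56 (SE 0.19, adjusted p = 0.0490). In fits leaving out a single library, that call was kept only without CHMo2, CHMy4, 2uy4, CHMo12, CHMy1 or CHMy11. It was lost with the column number as a block (-0.70, adjusted p = 0.0910) and in either column set alone. Median-of-ratios scaling, a smaller added value and a fit of only the chm/+ groups also ended it. So did leaving out 2uy3, CHMy2 and CHMo12 together. In wild type the change of Obp83g was -0.15 (adjusted p = 0.662).

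Obp73a stood at 58.8, 71.8, 57.8, 48.9 and 66.9 normalized counts in midlife chm/+, against 8.62 to 40.7 in young chm/+ (median 27.3). It rose by 0.94 (SE 0.20, adjusted p = 0.00227), and no young library reached the midlife range. The change was 1.38 in the first column set and 0.53 in the second, where it was not called (adjusted p = 0.251). In wild type the groups overlapped, and the change was 0.41 (adjusted p = 0.195). The reference annotation places 63 bases of its exons in Ogdh, on the same strand, so the values of Obp73a may hold reads of that gene. The table calls Ogdh Nc73EF, and its group means ran from 17228 to 19899. Nc73EF had changes of -0.20 and -0.07 in wild type and chm/+ (adjusted p = 0.117 and 0.671).

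Obp18a averaged 1195 ± 270 in midlife wild type and 791 ± 193 in young wild type (SD, n = 4 and n = 5) and rose by 0.59 (SE 0.21, adjusted p = 0.0459). The groups overlapped through library 2uo2. The change was 1.01 in the first column set and 0.06 in the second. In fits leaving out a single library, the call was kept only without CHMy2, CHMy4, 2uo2, 2uy4, 2uy5, CHMo11, CHMo12, CHMo5 or CHMy11. Obp18a was not called in the second set, under quantile normalization or with only the wild-type groups fitted. Nor was it called with the column number as a block, or without 2uy3, CHMy2 and CHMo12 together. Obp49a, which in other work lets bitter compounds suppress sweet taste, ranged from 1779 to 3832 and had a change of 0.26 in each genotype (adjusted p = 0.264 in wild type and 0.254 in chm/+). Obp8a had changes of -0.22 and -0.45 (adjusted p = 0.430 and 0.0693).

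The genes CheA87a, CheB42a and CheB42c were not called with age in either genotype. CheB42a, linked to male courtship, ranged from 19.7 to 70.6 normalized counts over all libraries, and CheB42c from 69.5 to 135. Of the exons of CheB42c, 961 bases are shared with mim on the same strand in the reference annotation, so its values may hold reads of that gene. CheB42a overlaps the span of CheB42c on the opposite strand without sharing exons.

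The genotypes were compared next within each age. In young heads, 4 of the 32 genes were higher in chm/+ (Obp56a, Obp83cd, Obp83g and CheA87a), 0 were lower and 28 were not called, where 1.45% of all genes were called, 0.895% higher and 0.559% lower. The log2 difference was positive for 23 of 32 genes, or 71.9%, against 49.8% of all genes, with a median of 0.20 against 0.00 for all genes. Genes that vary together within groups are not separate observations, and this share of signs was not tested. At midlife 0 of the 32 were called by limma, where 1.95% of all genes were called, 0.712% higher and 1.24% lower, and 3 of the 32 had an unadjusted p under 0.05, and with array weights 2 were called. There 16 of 32 differences were positive and 16 negative, with a median of -0.01, and no gene had groups without overlap (2.09% of all genes with chm/+ higher and 2.39% with chm/+ lower).

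**Figure D4:**
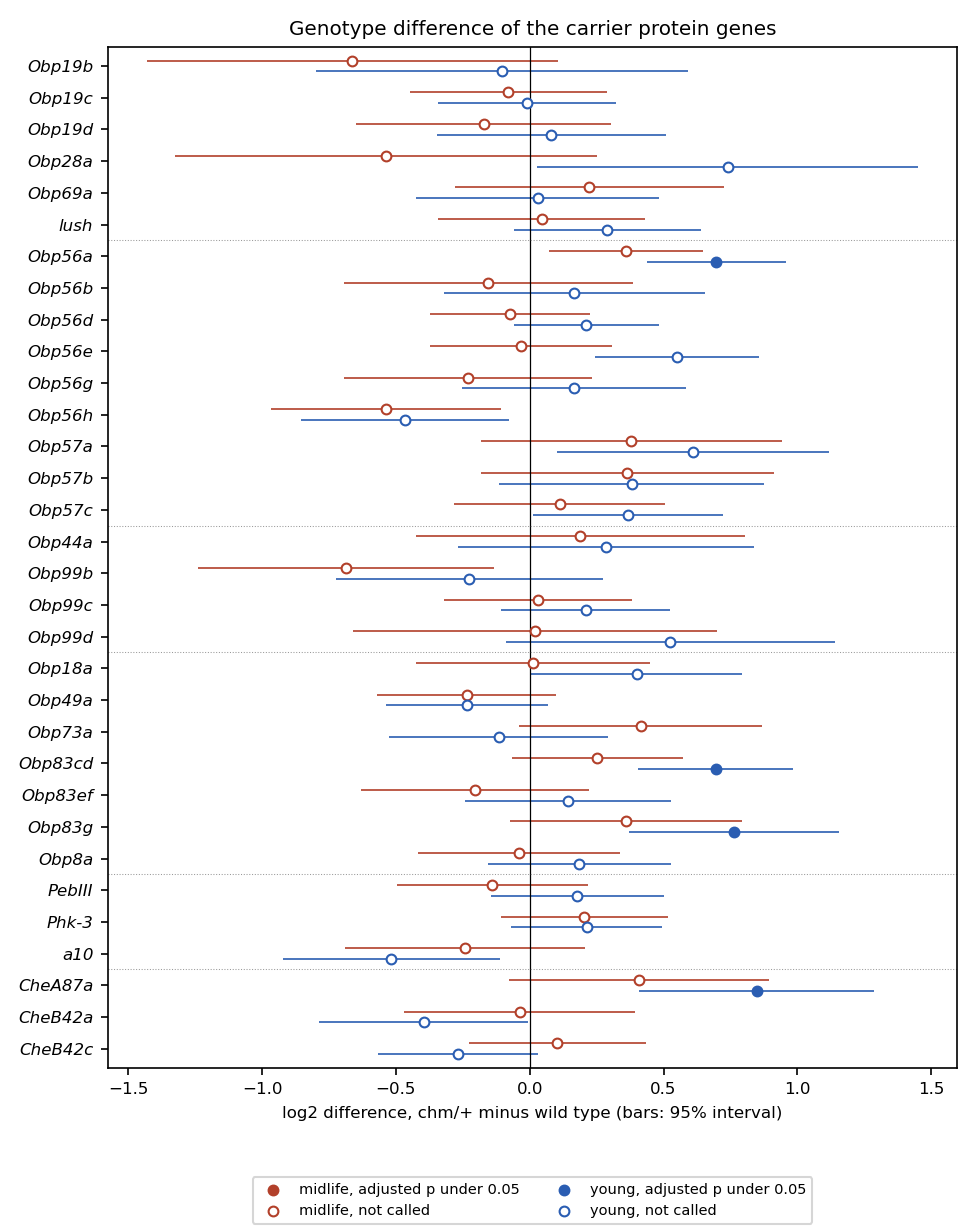
Log2 difference between chm/+ and wild-type heads (x axis, with 95% interval from limma) for the 32 carrier genes (y axis, in the same blocks as for age), at midlife (red, above) and in young heads (blue, below), with filled points at an adjusted p under 0.05. The filled points are the 4 genes higher in young chm/+ heads, and no midlife point is filled.

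Obp56a stood at 153 to 236 normalized counts in young chm/+ (median 209), against 96.5, 117, 165, 126 and 104 in young wild type. CHMy11 was the only chm/+ library within the wild-type range. The log2 difference was 0.70 (SE 0.12, adjusted p = 0.00430), and it was 0.71 and 0.70 in the first and second column sets. At midlife it was 0.36 (SE 0.14, adjusted p = 0.254).

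Obp83cd stood at 47.1 to 86.1 in young chm/+ (median 57.1), against 32.1, 31.6, 34.7, 35.1 and 29.3 in young wild type, without overlap. The log2 difference was 0.69 (SE 0.14, adjusted p = 0.00910), and 0.53 and 0.87 in the first and second column sets. Leaving out any 1 library kept the calls of Obp83cd and Obp56a. Obp83cd was not called in the second column set alone or with the column number as a block (adjusted p up to 0.439). Obp56a was not called in either column set alone or with that block (adjusted p up to 0.228). At midlife Obp83cd differed by 0.25 (adjusted p = 0.473).

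Obp83g stood at 41.4 to 95.1 in young chm/+ (median 61.5), against 33.1, 36.4, 32.8, 17.2 and 31.4 in young wild type. CheA87a stood at 449.8 to 911 in young chm/+ (median 600.3), against 221, 359, 342, 422 and 422 in young wild type. Neither pair of groups overlapped, which held for 3 of the 32 genes with chm/+ higher and 0 with chm/+ lower (1.59% and 1.18% of all genes). The log2 differences were 0.76 for Obp83g (SE 0.19, adjusted p = 0.0449) and 0.85 for CheA87a (SE 0.21, adjusted p = 0.0464). In fits leaving out a single library, the call for Obp83g was kept only without CHMo2, CHMo3, CHMy4, CHMy1 or CHMy11. That for CheA87a was then kept only without CHMo3, CHMy4, 2uy4, 2uy5 or CHMo5. Both calls were also lost under quantile normalization, in either column set alone and with the column number as a block. Fitting only the young groups ended both too, as did leaving out 2uy3, CHMy2 and CHMo12 together. CheA87a overlaps Lip3 by 107 bases on the opposite strand in the reference annotation, and Lip3 averaged 55.8 ± 10.2 in young chm/+ and 67.8 ± 12.5 in young wild type (SD, n = 6 and n = 5), and did not pass the test (-0.23, adjusted p = 0.542). The summed antennal markers were at 1264 to 1626 in young chm/+ against 915 to 1194 in young wild type, with 0 of 5 called, and their part in these 4 differences was not tested. That sum is mostly antdh and Snmp1, with means of 837.5 and 390 in young chm/+ against 570 and 300 in young wild type.

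**Figure D5:**
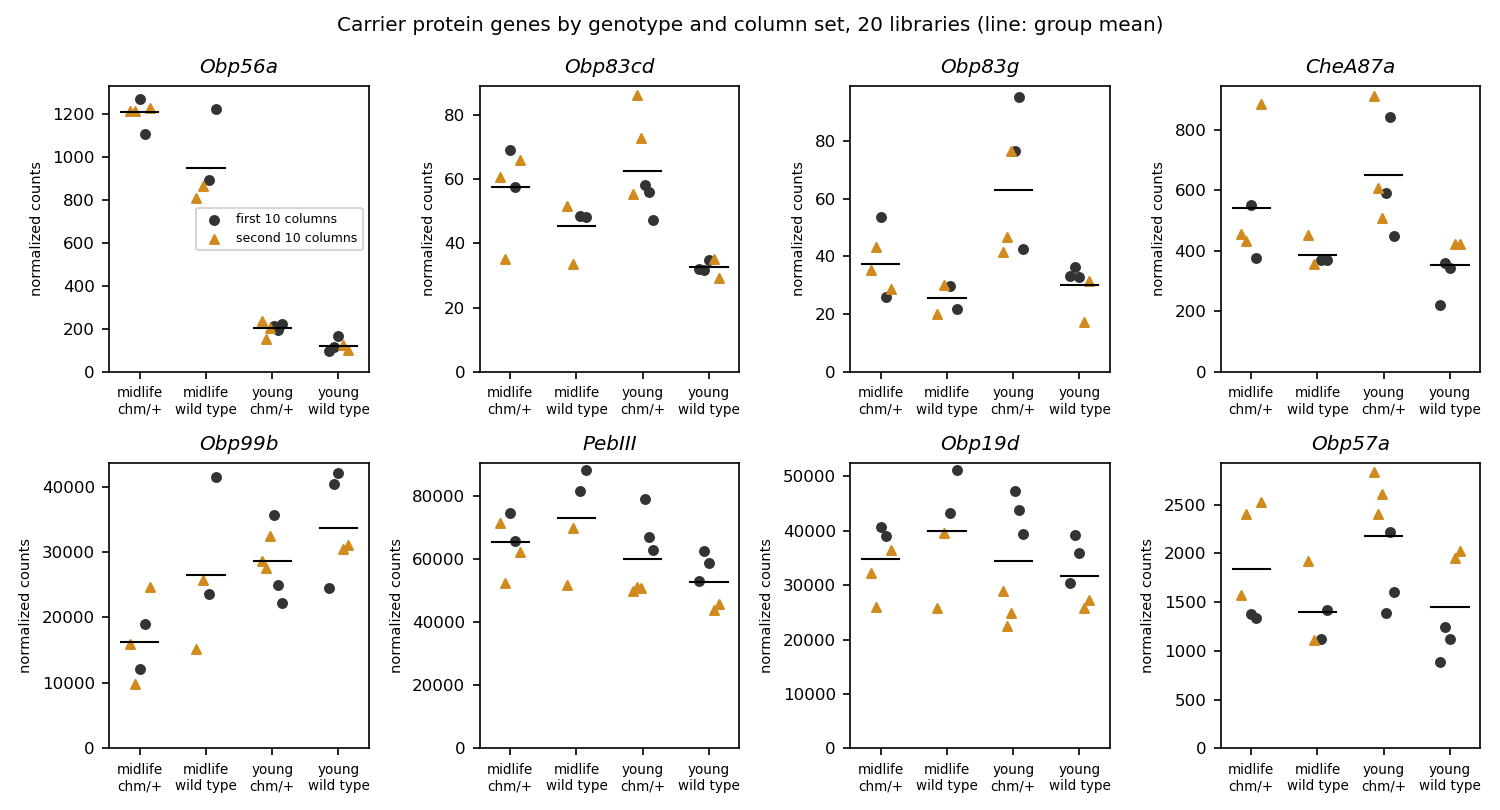
Normalized counts (y axis, linear from 0) of 8 carrier genes in each of the 20 libraries, with chm/+ left of wild type at midlife and then in young heads (x axis), circles for the first 10 and triangles for the last 10 table columns and a line at each group mean. Young chm/+ libraries of Obp83cd, Obp83g and CheA87a all lie above young wild-type ones. PebIII and Obp19d are higher in the first 10 columns in young heads, and Obp57a in the last 10.

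None of the 6 genes with the highest values was called between genotypes. Obp99b averaged 16274 ± 5862 in midlife chm/+ and 26480 ± 10972 in midlife wild type (SD, n = 5 and n = 4), with overlapping groups and a log2 difference of -0.69 (SE 0.26, adjusted p = 0.260). PebIII, Obp19d, Obp99c, Obp56d and Obp44a had midlife differences of -0.17 to 0.19.

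The difference between the changes with age, chm/+ minus wild type, was called for 0 of the 32 genes by limma, where 0.356% of all genes were called, 0.0203% higher and 0.336% lower, and 3 of the 32 had an unadjusted p under 0.05. The difference was negative for 27 of 32 genes, or 84.4%, against 47.5% of all genes, with a median of -0.25 against 0.01. These genes are not separate observations. Deviations from group means correlated at 0.931 for Obp57a with Obp57c and at -0.899 for Obp19d with Obp69a. The share of signs was not tested. The difference between the changes is computed from the same libraries as the genotype differences above. In the same comparison 4 of 5 antennal markers (median -0.34) and 7 of 7 haemocyte markers (median -0.96) were negative, with 0 called in either list. Of the 24 genes of the wider sense-organ list, which holds those 5 antennal markers, 13 were negative (median -0.06), with 0 called. Immune-induced genes were positive for 21 of 30 (median 0.26), with 0 called. Positive were 9 of 9 neuronal (median 0.23), 7 of 8 muscle (median 0.22) and 5 of 8 photoreceptor markers (median 0.01), with 0 called. Glial markers were negative for 4 of 7 and fat body markers for 5 of 9 (medians -0.01 and -0.02). The part of any of these lists in the signs of the carrier genes was not tested. The 27 include genes that rose in wild type, such as Obp56e (-0.58, 95% interval -1.04 to -0.12, adjusted p = 0.556), and genes that fell in chm/+, such as Obp99b (-0.46, 95% interval -1.21 to 0.28, adjusted p = 0.908). The 5 positive differences were those of Obp73a (0.53), CheB42c (0.37), CheB42a (0.36), a10 (0.28) and Obp69a (0.19). For Obp56a the difference was -0.34 (95% interval -0.72 to 0.05), and for Obp44a it was -0.10 (95% interval -0.92 to 0.73), so the intervals hold 0 without showing that the genotypes changed alike.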

How the data were processed

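Reads of 50 bp had been processed by the submitters with TopHat2 2.0.5, build BDGP5 and edgeR, per the submitters' processing notes. How reads were counted, on which annotation and after what filter is not given in the sources used here. Normalized counts had been deposited by the authors, brought to a common library size, handled here as a signal. Whole reads could not be recovered: with a tolerance of 0.02, 13.8% to 87.2% of low values per library fell on multiples of a fitted step. No count model was run.

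Values were analysed on a log2 scale after adding 14.48 to each value (0.5 CPM of a column of mean total), so fold changes of low genes are understated. A filter of 1 CPM in 4 libraries removed 0 genes. One limma 3.58.1 model (R 4.3.3, empirical Bayes, mean trend) took 20 libraries and 9831 genes with 4 group means, and was tested on simulated data. In all 5 comparisons were drawn from it, with Benjamini-Hochberg adjustment over all genes and two-sided p-values. Nothing in the sources says that samples came from separate cultures, so p-values measure the spread between these samples, which may be technical. The members, lists and settings were chosen with earlier results of these data known. Genes with full values are those called in any comparison and the 6 of highest mean, and some others are named with their changes. Symbols missing from the table were not analysed here.

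For libraries with the same column number, deviations from group means correlated between the ages at 0.165 to 0.635 in chm/+ (4 pairs). In wild type the correlations were -0.533 to 0.352. Each chm/+ pair lies within a single column set, and each wild-type pair spans both sets. Pairing by number therefore cannot be told apart from the column set. Chromosome arms are the table's. Overlaps and gene order come from the later BDGP6 annotation, and no coordinates are given.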

Additional observations from a re-analysis of the deposited data

Results flagged for a closer look

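Among 128 sets of values (32 genes in 4 groups), 4 held a library whose gap to the next value passed Dixon's 95% limit, where chance flags about 1 in 20. Obp56g in young wild type was at 1483 in library 2uy1, against 2600 to 2872 in the other 4. Obp83g in young wild type was at 17.2 in library 2uy4, against 31.4 to 36.4 in the others. Obp56b in midlife chm/+ was at 81.9 in library CHMo12, against 16.2 to 35.1 in the others. CheA87a in midlife wild type was at 452 in library 2uo1, against 355.3 to 369.7 in the others. No difference between the genotypes in the change with age was called for these 32 genes.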

How the results depend on the processing

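No called value changed sign under any setting run. Calls with age in wild type, 11 in the report, numbered 19 with array weights, 5 in the second column set alone and 23 with a set term plus array weights (a setting chosen after seeing the data), and 9 to 12 with single libraries left out. Over all 9831 genes the counts were 2329 in the report's fit and 3758, 408 and 4838 under those 3 settings. Calls with age in chm/+, 9 in the report, numbered 15 with a set term, 3 in the second column set alone and 16 with the set term plus weights, and 6 to 10 with single libraries left out, where all genes gave 1572, and then 2203, 365 and 3495. The 4 genotype calls in young heads became 2 under quantile normalization, 1 when at least 5 CPM was required, 1 in the first column set, 0 in the second, 10 with array weights, 2 with only those groups fitted, 0 with a replicate block and 8 with the set term plus weights. They became 2 without 2uy3, CHMy2 and CHMo12 together (also chosen after seeing the data), and 2 to 5 with single libraries left out, with 2 reached without 2uo4, 2uo5, 2uy1, 2uy2, 2uy3, CHMy2, CHMy3, 2uo1, 2uo2, CHMo11, CHMo12 or CHMy12. All genes gave 143 calls in young heads, 3194 with array weights and 1621 with the set term plus weights. At midlife 0 became 2 with array weights and 9 with the set term plus weights (all genes 192, and then 626 and 2192). For the difference of age changes 0 became 1 with the set term plus weights (all genes 35, and then 455), that gene being CheB42c. Both counts were 0 with any single library left out. The cause of these shifts was not tested. With the replicate block the counts with age were 9 in wild type and 8 in chm/+. In chm/+ the block ended the calls of Obp83ef and Obp83g, added Obp56b and changed no other call. Correlations between genotypes for the same column number were -0.524 to 0.656 in young heads. Whether column numbers mark paired libraries is not known. Obp56a and a10 in both genotypes and Obp99d in wild type kept their calls with age under every setting run. Among the calls with age lost in the second column set alone were Obp56b, Obp56d, Obp56e and Obp83ef in wild type. Obp19b and Obp83ef in chm/+ were lost there too. The files give no read counts, so depth could not be weighed.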
